A study of Mus musculus with 7 samples.

Results

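The mitochondrial ribosomal protein genes of retinal pigment epithelium (RPE) were compared between aged wild type (WT) and LC3b-/- mice. The RPE is the pigmented cell layer behind the retina that takes up shed photoreceptor tips, and LC3b, encoded by *Map1lc3b*, is a protein of autophagosomes and of phagosomes that carry LC3. The genes were taken by symbol: every protein-coding gene whose symbol begins with Mrpl or Mrps followed by a digit. Of the 52740 identifiers in the count table, 78 met this rule, and all 78 passed the filter on low counts and were tested. Another 6 matching genes are not protein coding and were left out. The WT group held 4 mice (3 females and 1 male) of strain C57BL6/J, and the LC3b-/- group held 3 mice (2 females and 1 male) of strain B6;129P2-Map1Lc3btm1Mrab/J. All mice were labelled 24 months old, none is described as treated, and each library came from 1 mouse. Because the strain names differ, strain background and the loss of LC3b cannot be told apart. The labels name no Cre driver or transgene in either group.

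The mitochondrial ribosome (mitoribosome) translates the few mRNAs encoded by mitochondrial DNA, all of which specify subunits of the respiratory chain and the ATP synthase. Its RNA comes from mitochondrial DNA, but its proteins are encoded in the nucleus, made in the cytosol and imported, so each new mitoribosome joins the products of both genomes. It has a small subunit, which holds the mRNA and reads its codons, and a large subunit, which forms the peptide bond. Some of its proteins have counterparts in the bacterial ribosome and others occur only in mitochondria. The RPE is rich in mitochondria and burns fatty acids from the photoreceptor tips it takes up.

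The libraries were stranded and made from polyadenylated RNA, and the values analysed were estimated counts per gene. The counts summed to between 24495952 and 35616134 per library, and 16990 genes were tested. Levels are given as CPM (counts scaled to a fixed library total) after scaling by TMM, a normalization for library composition, and fold changes are log2 values of LC3b-/- over WT from edgeR's quasi-likelihood test. A gene counted as called when its fold change reached 1.5 and its adjusted p was under 0.05. *Map1lc3b* itself was at 115 ± 11.2 CPM in WT and 7.28 ± 0.901 CPM in LC3b-/- (SD, n = 4 and 3) and fell by 3.98 on the log2 scale (SE 0.15, edgeR adjusted p = 1.86e-04). The defining RPE markers were present in every library, but other cell types were present as well. The marker levels of RPE and other cells are given beside those of the mitoribosomal genes.

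Most mitoribosomal protein genes had a lower level in LC3b-/- RPE, mostly by less than 1.5-fold, and edgeR called none of them. DESeq2 called 3 of the 78, all lower, where it called 3.06% of all genes lower and 9.8% in either direction. Fitted log2 fold changes were below 0 for 69 of the 78 genes and above 0 for 9, where 48.8% of all genes tested lay below 0. The median over the 78 genes was −0.25 (quartiles −0.33 and −0.10, range −0.69 to 0.54), and the median over all genes tested was 0.01. With edgeR 0 of the 78 genes were called, against 0.235% of all genes tested, and the smallest adjusted p among them was 0.0906. At an unadjusted p under 0.05, 20 of the 78 were lower (25.6%), against 10.6% of all genes tested, and 1 was higher (1.28%), against 13.5%. In 22 genes all 3 LC3b-/- libraries lay below all 4 WT libraries, and in 1 gene, *Mrpl33*, they lay above them. Over all genes tested, 10.3% were separated with LC3b-/- lower and 12.0% with LC3b-/- higher. The median standard error of a member's log2 fold change was 0.14, against 0.246 over all genes tested. The shares set side by side here thus come from genes measured with unlike precision.

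**Figure D1:**
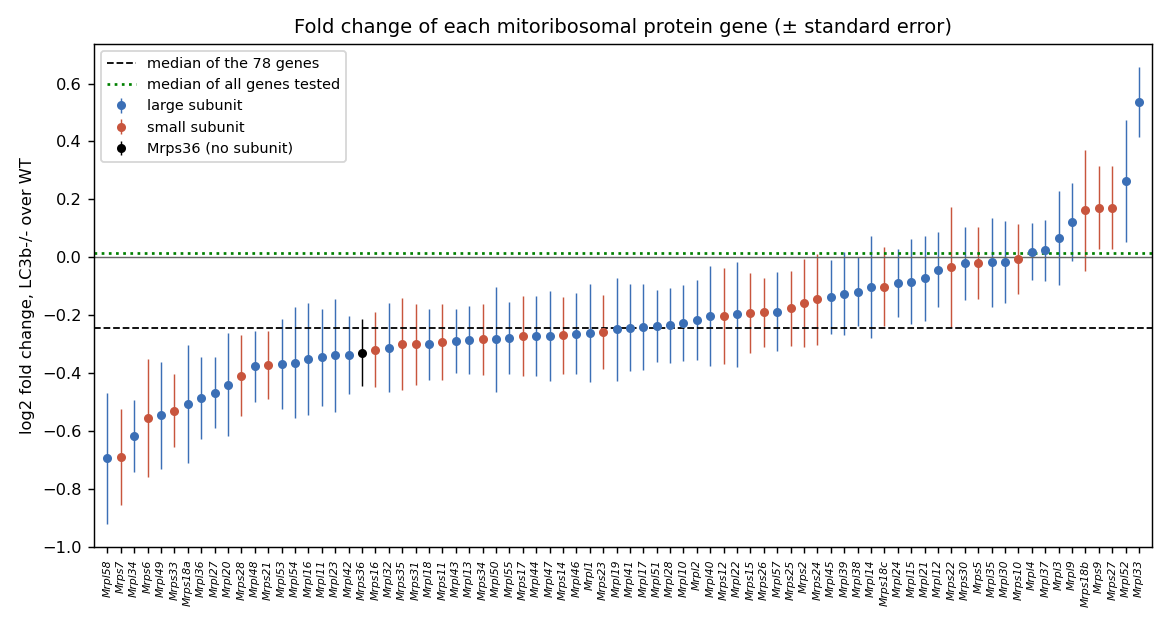
Log2 fold change of LC3b-/- over WT (vertical axis) for each of the 78 genes taken by symbol (horizontal axis, in order of fold change), with standard errors from edgeR as bars. *Mrps36*, which belongs to neither subunit, is black. Large subunit genes are blue and small subunit genes red, the dashed line is the median of the 78 genes (−0.25) and the dotted line the median of all genes tested (0.01). Most points lie below 0 in both colours, and *Mrpl33* stands at the upper end at 0.54.

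The count of 20 depended on single libraries, whereas the sign of the median did not. Without LC3b-/- F3 the count of lower genes at an unadjusted p under 0.05 was 6 of 78 (7.69%, against 7.20% of all genes in that fit), without WT M1 it was 9 (11.5%, against 6.53%), and without WT F2 it was 13 (16.7%, against 9.61%). Leaving out any other library gave 15 to 25. The median stayed between −0.30 and −0.20 when any 1 library was left out. With females only, 14 genes were lower at that threshold (17.9%, against 10.4%), with a median of −0.21. The males numbered 1 per group and gave no test of their own.

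The summed level of the 78 genes showed the same difference, with little room between the groups. The 4 WT libraries (F1, F2, F3 and the male M1, in that order here and below) had 2054, 2254, 2325 and 2547 CPM. The 3 LC3b-/- libraries (F1, F3 and the male M, in that order) had 1972, 1694 and 2001 CPM. The groups did not overlap, but WT F1 lay only just above LC3b-/- M. The lowest of all 7 levels was in LC3b-/- F3 for 57 of the 78 genes, and the highest was in WT M1 for 39. The median deviation of the genes from their WT mean was −0.36 in LC3b-/- F3 on the log2 scale, −0.14 in LC3b-/- F1 and −0.16 in LC3b-/- M. In WT F1 it was −0.13, so that this WT library resembled LC3b-/- F1 and M. The position of LC3b-/- F3 as the lowest rested on TMM scaling. As a share of the raw library total the 78 genes took 2015, 2221, 2358 and 2479 CPM in the WT libraries, against 1834, 1896 and 2000 CPM in the LC3b-/- libraries. On that scale LC3b-/- F1 was the lowest, and the groups again did not overlap.

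**Figure D2:**
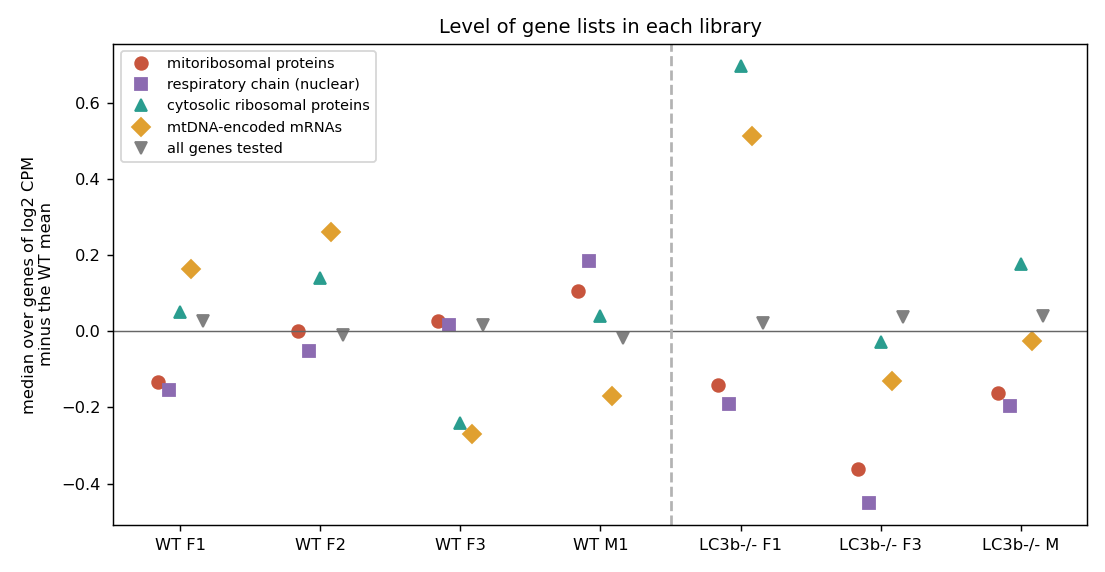
Median over the genes of each list of log2 CPM minus that gene's WT mean (vertical axis, log2 units) in the 7 libraries (horizontal axis), with WT left and LC3b-/- right of the dashed line. The mitoribosomal protein genes and the nuclear respiratory chain genes are both highest in WT M1 and lowest in LC3b-/- F3 (−0.36 and −0.45). The cytosolic ribosomal protein genes and the mRNAs of mitochondrial DNA are highest in LC3b-/- F1 (0.70 and 0.51).

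Many markers of RPE and of other cells also differed between the groups, but they did not all follow the mitoribosomal genes from library to library. Of 12 RPE markers 11 were lower in LC3b-/- (median log2 fold change −0.81), and their summed level was 32118, 31465, 39289 and 49439 CPM in WT, against 13952, 16716 and 29410 CPM in LC3b-/-. By summed level, WT M1 was thus the highest library for both the RPE markers and the mitoribosomal genes, and LC3b-/- M was the highest LC3b-/- library for both. By median deviation of the mitoribosomal genes, however, LC3b-/- F1 (−0.14) lay slightly above LC3b-/- M (−0.16). LC3b-/- F1, the lowest for the RPE markers, was not the lowest for the mitoribosomal genes on the TMM scale. All 8 markers of ocular surface epithelium were higher in LC3b-/- (median 3.97), with summed levels of 5.69 to 2063 CPM in WT and 2116 to 16408 CPM in LC3b-/-. All 8 endothelial markers were higher (median 0.94), at 388 to 1211 CPM in WT and 1380 to 1638 CPM in LC3b-/-. All 7 fibroblast markers were also higher (median 0.73), with overlapping sums. The summed photoreceptor markers ran from 36.6 to 20189 CPM within WT and from 48.3 to 7006 CPM within LC3b-/-. The part of these differences in the mitoribosomal values was not tested. In bulk RNA, fewer RPE cells and less of an mRNA per RPE cell cannot be told apart.

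Both ribosomal subunits showed the difference to about the same extent. Of 51 genes of the large subunit 45 were lower, with a median log2 fold change of −0.24. At an unadjusted p under 0.05, 13 were lower (25.5%), against 10.6% of all genes tested. Of 26 genes of the small subunit 23 were lower, with a median of −0.23, and 6 were lower at that threshold. *Mrps30* and *Mrps18a* were counted with the large subunit, where their proteins (mL65 and mL66) sit despite their names. The 46 proteins with a bacterial counterpart had a median of −0.24 with 41 lower, and the 31 found only in mitochondria had a median of −0.26 with 27 lower. None of these differences between classes was tested.

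The 8 lower members with the smallest unadjusted p had adjusted p-values of 0.0906 to 0.138 in edgeR's test. Of these, 5 belong to the large subunit and 3 to the small one. The plot by library shows them with the 4 higher members.

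**Figure D3:**
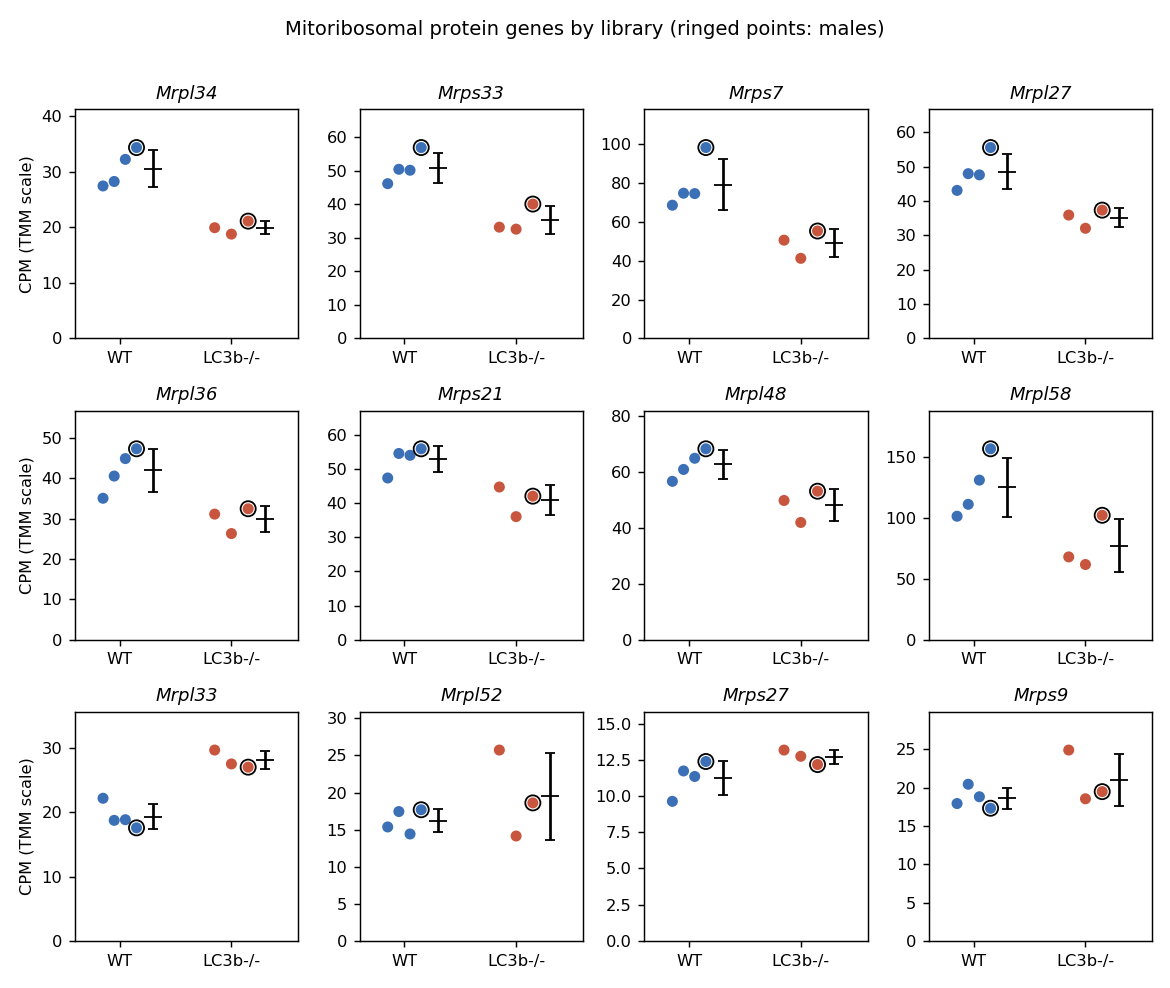
CPM on the TMM scale (vertical axes, from 0) in each WT (blue) and LC3b-/- (red) library for the 8 lower and 4 higher members with the smallest unadjusted p, with the mean and SD beside the points and males ringed. The groups are separate in the first 7 panels and in *Mrpl33*, which is the reverse of the others, and overlap in *Mrpl58*, *Mrpl52*, *Mrps27* and *Mrps9*.

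*Mrpl34* (ENSMUSG00000034880, GRCm39, chr8:71917555-71918396, plus strand) encodes bL34m, one of the smallest proteins of the large subunit and a counterpart of bacterial L34. Its level was 27.5, 28.3, 32.2 and 34.4 CPM in WT, against 19.9, 18.8 and 21.1 CPM in LC3b-/-. The LC3b-/- libraries lay within a narrow band below every WT library. The log2 fold change was −0.62 (SE 0.12), with an unadjusted p of 0.00139 and an adjusted p of 0.0906 in edgeR. An exact two-sided permutation test over the 35 assignments of the libraries gave 0.0286, the smallest value it can give. *Mrpl34* was picked by its small unadjusted p, so this value is no separate support. *Mrpl34* is on the chromosome of *Map1lc3b*, 50.4 Mb away, as is *Mrps31*, 99.4 Mb away (log2 fold change −0.30). Whether *Map1lc3b*-linked 129P2 sequence reaches them was not tested.

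*Mrpl27* (chr11:94544584-94552984, plus strand) encodes bL27m, a counterpart of a bacterial protein that lies near the centre where peptide bonds form. Levels were 43.1, 48.0, 47.6 and 55.6 CPM in the 4 WT libraries and 35.9, 32.1 and 37.4 CPM in the 3 LC3b-/- libraries. The groups did not overlap, and the log2 fold change was −0.47 (SE 0.12, edgeR adjusted p = 0.103). *Mrpl36* (chr13:73476605-73480647, plus strand), for bL36m, another very small large subunit protein, was at 35.1, 40.6, 44.9 and 47.3 CPM in WT and 31.1, 26.3 and 32.5 CPM in LC3b-/-. The groups were separate but adjacent, with a log2 fold change of −0.49 (SE 0.14, edgeR adjusted p = 0.117).

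*Mrpl48* (chr7:100194939-100257508, minus strand) encodes mL48, a protein found only in mitochondria that helps to build the central protuberance of the large subunit. Its level was 56.6, 60.8, 64.8 and 68.2 CPM in WT and 49.7, 41.9 and 53.0 CPM in LC3b-/-, a log2 fold change of −0.38 (SE 0.12, edgeR adjusted p = 0.137). *Mrpl58* (chr11:115294556-115303502, plus strand) encodes mL62, also known as ICT1, a peptidyl-tRNA hydrolase that frees stalled mitoribosomes and is built into the large subunit. It was at 101, 111, 131 and 157 CPM in WT and 68.0, 61.7 and 102 CPM in LC3b-/-. It had the most negative log2 fold change of the 78 genes, −0.69 (SE 0.23, edgeR adjusted p = 0.138), but LC3b-/- M reached the level of WT F1, so the groups overlapped.

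*Mrps7* (ENSMUSG00000046756, chr11:115494636-115498871, plus strand) encodes uS7m, which in bacteria starts the assembly of the head of the small subunit. It was at 68.6, 74.7, 74.5 and 98.3 CPM in WT and 50.6, 41.2 and 55.3 CPM in LC3b-/-. WT M1 stood above the other WT libraries, and the groups did not overlap. The log2 fold change was −0.69 (SE 0.17, edgeR adjusted p = 0.096).

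*Mrps33* (chr6:39777832-39787922, minus strand) encodes mS33, a small subunit protein without a bacterial counterpart. It was at 46.1, 50.4, 50.1 and 56.9 CPM in WT and 33.1, 32.5 and 40.0 CPM in LC3b-/-, a log2 fold change of −0.53 (SE 0.12, edgeR adjusted p = 0.0952). *Mrps21* (chr3:95766069-95778879, minus strand), for bS21m, was at 47.4, 54.6, 54.0 and 55.9 CPM in WT and 44.7, 36.1 and 42.1 CPM in LC3b-/-. Both genes had separate groups, and for *Mrps21* the log2 fold change was −0.37 (SE 0.12, edgeR adjusted p = 0.132).

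*Mrpl33* (ENSMUSG00000106918, chr5:31754279-31837542, plus strand), for bL33m, the counterpart of bacterial L33, went the other way. Its level was 22.2, 18.8, 18.9 and 17.6 CPM in WT and 29.7, 27.6 and 27.1 CPM in LC3b-/-. Every LC3b-/- library lay above every WT library, and the spread within groups was 1.98 and 1.42 CPM (SD). The log2 fold change was 0.54 (SE 0.12), with an unadjusted p of 0.00248 and an adjusted p of 0.0931 in edgeR. The exact permutation test gave 0.0286, which is again no separate support for a gene picked by its small p. The gene overlaps *Rbks*, for ribokinase, on the opposite strand, and the libraries were made with a stranded kit. On its own strand it overlaps 2 long non-coding RNA genes, *Gm43809* (over 83261 bases, 36 counts in all) and *Gm73126* (over 414 bases, without counts here). The part of these overlaps in its values was not tested.

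The other 3 higher members with the smallest unadjusted p had overlapping groups and did not pass the test. *Mrpl52*, for mL52, had a mean of 16.2 ± 1.59 CPM in WT and 19.5 ± 5.85 CPM in LC3b-/-, where LC3b-/- F1 at 25.7 CPM carried the difference and LC3b-/- F3 at 14.1 CPM was the lowest of the 7. *Mrps27*, for mS27, a protein with pentatricopeptide repeats, was at 11.3 ± 1.17 and 12.7 ± 0.501 CPM. *Mrps9*, for uS9m, whose tail reaches the tRNA in the ribosome's P site, was at 18.6 ± 1.36 and 21.0 ± 3.43 CPM. Their edgeR adjusted p-values were 0.467, 0.488 and 0.491.

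DESeq2, run as an alternative, passed 6 members at an adjusted p under 0.05. Of these, 5 were lower (*Mrpl27*, *Mrpl34*, *Mrpl58*, *Mrps7* and *Mrps33*), where 3.9% of all genes passed with a lower level, and *Mrpl33* was higher, where 7.01% passed. With the fold change threshold, *Mrpl34* (DESeq2 adjusted p = 0.00407), *Mrps7* (0.0131) and *Mrpl58* (0.0496) remained, 3 of 78 genes, where DESeq2 called 3.06% of all genes lower and 9.8% in either direction. With sex as a covariate in edgeR, *Mrps7* was called, at an adjusted p of 0.0479, and *Mrps18a* had an adjusted p of 0.0479 with a fold change under the threshold. That fit called 1.16% of all genes. Across all alternatives the adjusted p ranged from 0.00407 to 0.261 for *Mrpl34*, from 0.0131 to 0.278 for *Mrps7*, from 0.0496 to 0.379 for *Mrpl58*, from 0.0479 to 0.451 for *Mrps18a* and from 0.00868 to 0.325 for *Mrpl33*.

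Among the 78 genes the mean level per kilobase of canonical transcript over the 7 libraries ran from 1.75 to 95 CPM per kb, with a median of 12.3. The highest were *Mrps6* (95 CPM per kb), for bS6m of the small subunit, *Mrps21* (86.2 CPM per kb) and *Mrps18a* (68.0 CPM per kb). *Mrps6* was at 101, 94.9, 115 and 147 CPM in WT and 75.8, 62.3 and 95.4 CPM in LC3b-/-, a log2 fold change of −0.56 (SE 0.20, edgeR adjusted p = 0.165) with groups that overlapped by a narrow margin. *Mrps6* shares its strand with *Slc5a3*, for an inositol transporter, inside its bounds, so the split of reads between them is uncertain. *Mrps18a* was at 60.3, 64.1, 63.5 and 88.3 CPM in WT and 42.7, 40.8 and 62.3 CPM in LC3b-/-, a log2 fold change of −0.51 (SE 0.20, edgeR adjusted p = 0.188). Here WT M1 stood apart from the other WT libraries.

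The lowest levels per length were those of *Mrpl1* (1.75 CPM per kb), for uL1m of the large subunit's mobile stalk, *Mrps2* (2.23 CPM per kb), for uS2m, and *Mrpl35* (2.65 CPM per kb), for bL35m. Their groups overlapped. *Mrpl1* had a mean of 8.08 ± 0.89 CPM in WT and 6.74 ± 0.412 CPM in LC3b-/-. *Mrps2* was at 12.8 ± 1.74 and 11.5 ± 0.471 CPM. *Mrpl35* was at 9.92 ± 0.885 and 9.81 ± 0.902 CPM, a difference smaller than either SD.

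Across the members the fold change went along with level more than with length. The 26 shortest members (canonical transcripts of 555 to 1288 bases) had a median log2 fold change of −0.31, and 12 of them were lower at an unadjusted p under 0.05. The middle 26 had a median of −0.16 with 6 such genes, and the 26 longest a median of −0.24 with 2. Over all genes tested, of any length, 10.6% were lower at that threshold. In the shortest, middle and longest class 24, 20 and 25 members had a fold change below 0. Protein-coding genes of the same lengths had medians of −0.12, −0.03 and 0.05, so each length class of the members lay below genes of like length. Spearman's rho between log2 fold change and transcript length was 0.227 over the 78 members and 0.0856 over 14928 protein-coding genes, and between log2 fold change and mean CPM it was −0.381 and −0.210. Pearson's r between log2 fold change and log2 length was 0.132 and 0.0182. These are correlations across genes, which share the same 7 libraries and are not independent replicates.

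*Mrps36* falls under the rule by its symbol, but its product (KGD4) is known in animals as a subunit of the α-ketoglutarate dehydrogenase complex of the citric acid cycle and not as a mitoribosomal protein. Its level was 16.8, 18.2, 16.9 and 18.3 CPM in WT and 14.3, 13.2 and 14.4 CPM in LC3b-/-. The groups were narrow and did not overlap, with a log2 fold change of −0.33 (SE 0.12, edgeR adjusted p = 0.154). Conversely, 5 subunits have other symbols, and 3 of these were lower, with a median of −0.20. *Chchd1*, for mS37, was at 22.7, 24.6, 25.2 and 31.8 CPM in WT and 17.0, 14.4 and 19.3 CPM in LC3b-/-, without overlap. Its log2 fold change was −0.63 (SE 0.17, edgeR adjusted p = 0.103, range over the alternatives 0.0274 to 0.299). DESeq2 called *Chchd1* lower (log2 fold change −0.66, DESeq2 adjusted p = 0.0274), the only 1 of these 5 that it called, where it called 3.06% of all genes lower. *Aurkaip1*, for mS38, had a log2 fold change of −0.30 (edgeR adjusted p = 0.212) and *Gadd45gip1*, for mL64, also known as CRIF1, one of −0.20 (0.358), both with overlapping groups. *Dap3*, for the GTP-binding protein mS29, was at 0.12 (0.644) and *Ptcd3*, for mS39, at 0.01 (0.95), a value whose sign changed with the normalization.

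The other lists were read from the same 7 libraries and are given beside the mitoribosomal genes, with no test between lists. The 84 nuclear genes of the respiratory chain had a like median: 77 were lower, with a median log2 fold change of −0.28. The products of many of them, though not those of complex II, join the proteins that the mitoribosome makes. At an unadjusted p under 0.05, 32 (38.1%) were lower, against 10.6% of all genes tested. Of the 84, edgeR called 0 and DESeq2 called 6 lower, where it called 3.06% of all genes lower. *Ndufa12*, for a subunit of complex I, was at 75.9, 83.9, 85.9 and 99.9 CPM in WT and 48.7, 35.9 and 45.6 CPM in LC3b-/-, a log2 fold change of −0.99 (SE 0.15, edgeR adjusted p = 0.058). That was just over the threshold, and over all alternatives the adjusted p ran from 2.04e-05 to 0.214. *Sdhc*, for a subunit of complex II, was at 151 ± 7.93 CPM in WT and 102 ± 8.42 CPM in LC3b-/-, with a log2 fold change of −0.57 (edgeR adjusted p = 0.0869).

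**Figure D4:**
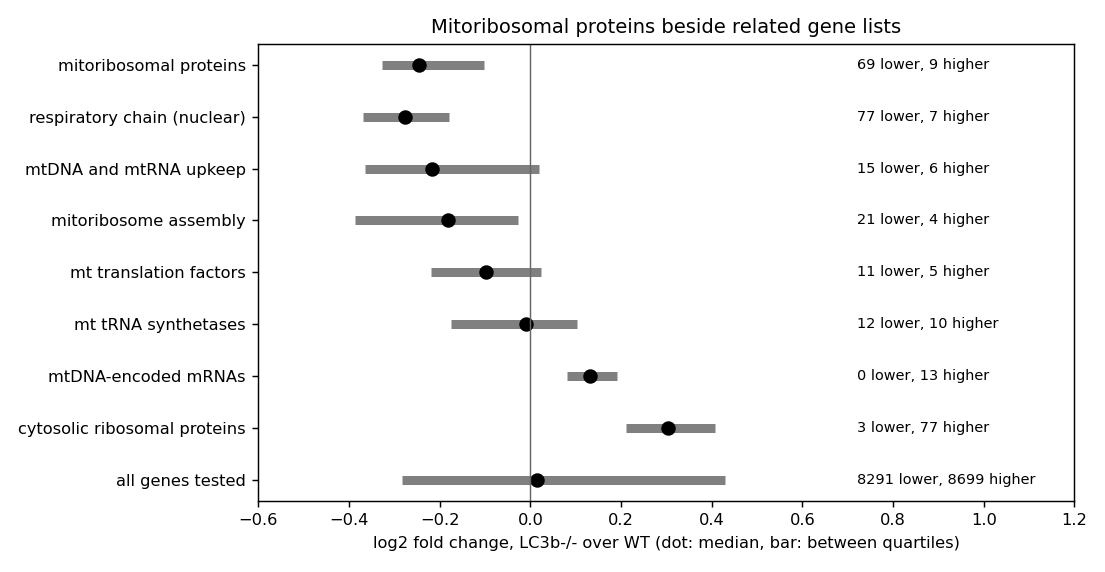
Median (dot) and quartiles (ends of the bar) of the log2 fold changes of LC3b-/- over WT (horizontal axis) for the mitoribosomal protein genes and other lists (vertical axis), with the number of genes lower and higher at the right. The mitoribosomal genes (−0.25) and the nuclear respiratory chain genes (−0.28) lie to the left of 0, and the cytosolic ribosomal protein genes (0.30) to the right.

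In the fit of all libraries without covariates, genes that build or serve the mitoribosome had medians nearer to 0, but for some lists this depended on the setting. With females only, the assembly factors (−0.22) and the genes for mitochondrial DNA and RNA (−0.23) lay slightly below the mitoribosomal median (−0.21). With the mouse tag as a replicate block they were at −0.23 and −0.25, against −0.20. Of 25 mitoribosome assembly factors 21 were lower (median −0.18). In that list 3 (12%) were lower at an unadjusted p under 0.05, near the 10.6% of all genes tested, among them *Rbfa*, a factor for the small subunit's RNA, at 16.4 ± 0.839 CPM in WT and 11.7 ± 0.823 CPM in LC3b-/- (edgeR adjusted p = 0.0984), and *Ngrn* (log2 fold change −0.39, edgeR adjusted p = 0.184). Of 16 translation factors 11 were lower (median −0.10); *Rmnd1* was at −0.36 (edgeR adjusted p = 0.174) and *Mtfmt*, which formylates the initiator tRNA, at 0.35 (0.277). Of 22 mitochondrial tRNA synthetase genes 12 were lower and 10 higher (median −0.01), a split that turned to 10 and 12 with library size as the scale; *Gatc* was at −0.50 (edgeR adjusted p = 0.134) and *Pars2* at −0.53 (0.177). Of 21 genes for the upkeep and expression of mitochondrial DNA and RNA 15 were lower (median −0.22). At an unadjusted p under 0.05, 4 of them (19.0%) were lower and 1 (4.76%) was higher, against 10.6% and 13.5% of all genes tested. *Lrpprc* and *Slirp*, whose products form a complex that keeps mitochondrial mRNAs stable, were at −0.36 and −0.53 (edgeR adjusted p = 0.12 and 0.105), each without overlap between the groups. In these 4 lists 0 genes were called by edgeR or by DESeq2.

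The 13 protein-coding genes of mitochondrial DNA, whose mRNAs the mitoribosome translates, were not lower in the fit of all libraries. All 13 had a log2 fold change above 0, with a median of 0.13, and 0 of them had an unadjusted p under 0.05 or were called by edgeR or DESeq2. This rested on LC3b-/- F1: without that library 11 of the 13 were below 0, with a median of −0.11. *mt-Nd4l* was at 847 ± 162 CPM in WT and 1050.4 ± 315 CPM in LC3b-/-, and *mt-Nd6* at 94.7 ± 13.8 and 108 ± 33.7 CPM, both with overlapping groups.

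Genes for the cytosolic ribosome, which translates nuclear mRNAs, were mostly higher, unlike those of the mitoribosome. Of 80 genes 77 were higher with a median of 0.30, 8 of them (10%) at an unadjusted p under 0.05, below the 13.5% of all genes tested that were higher at that threshold. EdgeR called 0 of the 80 and DESeq2 1, where they called 0.235% and 9.8% of all genes in either direction. This too was largest in LC3b-/- F1, and without it the median was 0.07 with 58 of 80 higher, whereas the mitoribosomal median without it was −0.27 with 71 of 78 lower. *Rplp1*, for a stalk protein, was at 357 ± 58.2 CPM in WT and 558 ± 144 CPM in LC3b-/- (edgeR adjusted p = 0.145). *Rpl39l*, a paralog with a low level, was at 0.0784 ± 0.081 and 0.602 ± 0.13 CPM (0.108). Of 9 regulators of mitochondrial genes 3 were lower and 6 higher. *Myc*, a transcription factor that drives ribosome formation and growth, was at 15.5, 7.58, 4.61 and 9.0 CPM in WT and 30.1, 18.0 and 23.0 CPM in LC3b-/-, at a log2 fold change of 1.37 (edgeR adjusted p = 0.112). *Pprc1*, a coactivator of the PGC-1 family, was at 15.8, 12, 8.2 and 9.42 CPM in WT and 24.7, 16.7 and 25.4 CPM in LC3b-/- (log2 fold change 0.97, 0.105 for the adjusted p). Both had separate groups, were not called by edgeR and were called by DESeq2, with adjusted p-values over all alternatives of 0.0126 to 0.334 for *Myc* and 0.0158 to 0.318 for *Pprc1*.

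Many mitoribosomal protein genes share a start region with another gene. A gene on the opposite strand starts within 1000 bases of 29 of the 78, and the share over all genes was not counted. Of the 24 tested neighbours that are not members, 15 were lower and 9 higher with a median log2 fold change of −0.11. At an unadjusted p under 0.05, 1 was lower and 3 were higher, where 10.6% and 13.5% of all genes tested were. *Mrpl46* and *Mrps11*, members whose starts lie 412 bases apart, were at −0.26 and −0.29. *Mrpl36* (−0.49) starts 56 bases from *Ndufs6*, for a subunit of complex I (−0.28). *Mrpl49* (−0.55) starts 3 bases from *Fau*, for a cytosolic ribosomal protein (0.19). *Mrpl44* (−0.27) starts 125 bases from *Wdfy1*, which rose by 1.93 on the log2 scale (edgeR adjusted p = 0.00547) and was singled out after its value was seen.

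Promoter sequences from RefSeq (build GRCm38.p6, 250 bases before to 50 after each start) were matched by symbol for 69 of the 78 genes, in 75 windows. Short sequences bound by factors known to act at nuclear genes for mitochondrial proteins were searched on both strands. The site of NRF1 (GCGC, any base, then TGCGC) lay in 17.3% of the members' windows, against 6.38% of the windows of all coding genes and 4.60% of all windows. CCGGAAG, a core of sites for ETS factors such as GABP (NRF2), lay in 34.7%, against 11.6% and 8.86%. AAGATGGCG, the site of YY1, lay in 10.7%, against 1.83% and 1.4%. The median log2 fold change of members with and without each sequence was −0.14 and −0.26 for the NRF1 sequence, −0.24 and −0.24 for CCGGAAG and −0.22 and −0.24 for AAGATGGCG. CCGGAAG and AAGATGGCG can share the letters AAG, and a match is a description of letters and not a site in use.

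The start regions of 4 of the members described above are shown because 3 of them were lower and *Mrpl33* was higher, while all hold the ETS core. Each runs from 250 bases before to 30 bases after the start on the gene's own strand, 5′ to 3′, with the motifs in capitals. In *Mrps21* the first capitals are the NRF1 sequence and the second are the ETS core read on the other strand. Coordinates are those of GRCm38.p6, chr8:71464676-71464955 for *Mrpl34*, chr11:94653541-94653820 for *Mrpl27*, chr3:95871485-95871764 on the minus strand for *Mrps21*, and chr5:31613701-31613980 for *Mrpl33*, and are not those of the GRCm39 gene positions above.
Mrpl34: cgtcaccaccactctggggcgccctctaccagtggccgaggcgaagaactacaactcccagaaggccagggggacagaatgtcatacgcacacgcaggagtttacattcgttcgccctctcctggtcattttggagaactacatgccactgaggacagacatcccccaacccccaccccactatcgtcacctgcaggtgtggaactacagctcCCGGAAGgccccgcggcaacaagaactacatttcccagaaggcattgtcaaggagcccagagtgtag
Mrpl27: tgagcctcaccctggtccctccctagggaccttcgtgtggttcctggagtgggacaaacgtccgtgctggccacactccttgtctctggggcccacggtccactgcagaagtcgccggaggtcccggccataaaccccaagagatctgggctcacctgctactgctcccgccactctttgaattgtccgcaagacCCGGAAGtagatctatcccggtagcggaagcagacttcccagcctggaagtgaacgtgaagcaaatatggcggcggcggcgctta
Mrps21: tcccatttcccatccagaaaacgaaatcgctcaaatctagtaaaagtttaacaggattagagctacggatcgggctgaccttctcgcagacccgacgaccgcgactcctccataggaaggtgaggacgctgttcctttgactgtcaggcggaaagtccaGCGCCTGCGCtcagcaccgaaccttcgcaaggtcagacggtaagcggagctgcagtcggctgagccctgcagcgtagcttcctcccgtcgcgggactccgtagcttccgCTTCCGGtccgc
Mrpl33: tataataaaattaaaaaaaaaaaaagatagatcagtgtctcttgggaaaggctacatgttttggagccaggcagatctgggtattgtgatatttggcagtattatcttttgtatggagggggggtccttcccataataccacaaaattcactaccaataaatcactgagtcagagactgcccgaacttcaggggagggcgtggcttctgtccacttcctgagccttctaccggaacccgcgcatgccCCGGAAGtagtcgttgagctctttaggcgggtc
The letters CCGGAAG lie upstream of the start in *Mrpl34* and *Mrpl27*, span it in *Mrpl33* and lie downstream of it in *Mrps21*. The 4 genes were picked with their values and motifs known, so nothing is read from the motif in them.

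Near-identical copies could have taken reads from 5 members. *Mrpl21*, *Mrpl22*, *Mrpl23*, *Mrpl27* and *Mrpl42* have processed pseudogenes with at least 95% identity over at least 50% of their transcript. *Mrpl23-ps1* held 825 counts in all, against 3717 for *Mrpl23* (log2 fold change −0.34), and the other 4 copies held 0 to 4 counts each. With copies summed, which was added after seeing the data, 68 of 78 members were lower and the count at an unadjusted p under 0.05 stayed at 20. The lowest count of any member in any library was 148 and the highest 4078.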

How the data were processed

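RNA from RPE of 7 mice was sequenced as stranded mRNA libraries with single reads. The authors estimated counts with salmon 1.9.0 on GENCODE vM26 (GRCm39) and obtained gene totals with tximeta. The deposited values are such estimated counts, rounded to whole numbers, and 0 columns were unused. Totals were 24495952 to 35616134 counts per library. Symbols came from GENCODE vM39, which matched 51721 of 52740 identifiers. The members and lists were chosen with earlier results of these data known.

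The test was that of edgeR 4.0.16 in R 4.3.3 (filterByExpr, TMM, quasi-likelihood test, Benjamini-Hochberg adjustment over 16990 genes, no covariates). Standard errors are the coefficient over the root of F. Log2 CPM used a prior count of 2. Exact permutation tests used 35 assignments, two-sided, smallest p 0.0286. Alternatives were DESeq2 1.42.0, limma 3.58.1 voom with quality weights, other scalings and filters, sex, females only, a replicate block and each library left out. Code was tested on simulated data. Copies were found with BLAST 2.17.0. Named members were the 8 lower and 4 higher with the smallest unadjusted p, the 3 highest and 3 lowest per length, and the 2 with the smallest p in each other list. P-values measure the spread between single mice.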

Additional observations from a re-analysis of the deposited data

Results flagged for a closer look

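*Mrps18a* in WT M1 (88.3 CPM) stood apart from the other WT libraries (60.3 to 64.1 CPM). Its gap to the nearest library was 0.863 of the WT range, above the critical value of Dixon's test for 4 samples. *Slirp* in WT M1 (35.8 CPM, against 26.9 to 28.2 CPM) stood apart in the same way, with a gap of 0.855 of the range. In all, 58 values were examined, and chance alone picks about 1 group in 20. WT M1 was the only WT male and had the highest summed RPE markers (49439 CPM); the part of either in these values was not tested.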

How the results depend on the processing

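The median log2 fold change of the 78 genes stayed negative under every alternative run, between −0.30 and −0.20. It was −0.27 with DESeq2's size factors and −0.22 with library size alone, where all genes had medians of −0.0034 and 0.056. The number of members called was 0 in edgeR, 3 with DESeq2 and 1 with sex as a covariate, and 0 under every other alternative. Of all genes, the first 3 of these fits called 0.235%, 9.8% and 1.16%. The number lower at an unadjusted p under 0.05 was 32 with limma's voom and quality weights (41.0%, against 13.9% of all genes) and 7 with the mouse tag as a replicate block (8.97%, close to the 7.52% of all genes), and ranged from 6 to 25 with each library left out. The labels give WT and LC3b-/- mice the same tags only as F1 and F3, and say nothing of a pairing. The mouse names also hold a number that the labels do not explain. No WT mouse shares it with an LC3b-/- mouse, so what it stands for cannot be told apart from genotype. Deviations from the group means over 16990 genes correlated at 0.146 (F1) and 0.243 (F3) within these pairs, and at up to 0.534 between mice that do not share a tag. Under the block edgeR called 0 genes of any kind, and *Map1lc3b* stood at −3.95 with an adjusted p of 0.0701. For genes named singly, 633 values kept their direction and side of the threshold, 18 became called and 11 changed sign. *Mrpl35* was at 0.015 with library size alone and −0.069 to 0.039 with a library left out. *Ptcd3* was at −0.0065 with DESeq2, −0.0027 with its size factors and −0.0014 with voom, and −0.020 to 0.046 with a library left out. *mt-Nd6* ran from −0.097 (without LC3b-/- F1) to 0.32. With 4 and 3 mice and a median standard error of 0.14, changes of the size of the members' median could not be resolved gene by gene.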
